A study of Oryza sativa with 20 samples.

Results

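In rice roots, 40 genes stood low in the cultivar Bala while 4 other cultivars all expressed them. They were found among the 21237 gene rows measured, of which 11607 had a mean of at least 5 CPM in each of the 4 other cultivars. CPM is the count of a gene scaled to the total of its library, here with TMM factors between libraries, so a CPM value is not corrected for gene length. A gene was included when the lowest of the 4 other cultivar means was at least 5 CPM and the Bala mean lay at least 4-fold below that lowest mean. The Bala values therefore chose these genes, and they are given below as a description with no test. The same rule gave 98 genes with CPM by library total, 82 with ribosomal RNA genes left out before scaling and 16 with a minimum of 10 CPM. The 40 were all among the 98 and the 82. Without ribosomal RNA genes the library totals are smaller and CPM values larger, so the 5 CPM minimum was less strict there.

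Root RNA was sequenced from Bala, Azucena, Sarali, Niyan Wee and Moddai Karuppan, with 4 libraries per cultivar and 20 in all. Azucena is an upland tropical japonica rice and Bala an upland indica rice. The other 3 are called Sri Lankan here, since the series title speaks of Sri Lankan Indica II rice without listing names. The labels give the tissue and the genotype, and they name no treatment, transgene, growth condition or plant age for any group. They do not say whether the 4 libraries of a cultivar came from separate plants, so the p-values measure the spread between these libraries, which may be technical.

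Rice cultivars are inbred lines whose genomes differ in which genes they hold and in how far the alleles of a gene have diverged. Whole genes or blocks of neighbouring genes can be present in japonica and absent from an indica line, or the reverse, and long non-coding RNA (lncRNA) genes and pseudogenes are conserved less well than most protein genes. Counts come from reads placed on 1 reference genome. A gene that is absent from Bala, one whose Bala allele is too different for its reads to be placed, and one that is intact but little transcribed cannot be told apart in these counts. In bulk tissue, fewer cells of a type and less RNA per cell cannot be told apart either.

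Total counts per library lay between 23444525 and 31996667. Ribosomal RNA genes took 62.8% to 84.6% of the counts in the Bala libraries and 4.07% to 64.5% in the others, which left 3813600 to 10791163 counts in other genes in Bala and 10185136 to 28063061 elsewhere. A count of 3, taken as the limit that a count of 0 allows, corresponded to 0.130 to 0.385 CPM in a single Bala library and to 0.0509 CPM over the 4 together; such limits and all intervals cover counting error only. Of the root markers, the silicon channel NIP2-1 had a mean of 404 CPM in Bala and of 92.2 to 206 CPM in the others, and the silicon exporter Lsi2 331 against 50.2 to 130 CPM. The root gene RCc3 stood at 860 CPM in Bala and 515 to 957 in the others, and CASP1 of the Casparian strip at 29.1 and 7.96 to 38.4 CPM. The small subunit of Rubisco (LOC_Os12g17600), the 1 leaf marker of 5 that was measured, had means of 0.940 to 2.71 CPM, with 1.53 in Bala, and the other leaf markers were not analysed here.

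No member carried a gene name beyond its LOC number, and no source used here annotates a function for any of them, so they are described by identifier, transcript class and position in the gene order. By the RefSeq class, 29 were protein coding, 9 were lncRNA genes and 2 were pseudogenes. They lay on all 12 chromosomes, with 6 each on chromosomes 1 and 4 and 2 to 4 on each of the others.

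The genes together reached 1021 to 1677 CPM in the 16 libraries of the other cultivars and 49.0 to 68.7 CPM in the 4 Bala libraries. A single gene, LOC4328727, made up much of this sum, and without it the ranges were 600 to 836 CPM and 26.7 to 38.6 CPM. Most of the genes were modest in level: the mean over the 16 libraries was below 20 CPM for 26 of them and above 50 CPM for 2. The Bala mean had a median of 0.449 CPM over the 40 genes, against a median of 8.29 CPM for the lowest other cultivar mean, and it was below 1 CPM for 25 genes.

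**Figure D1:**
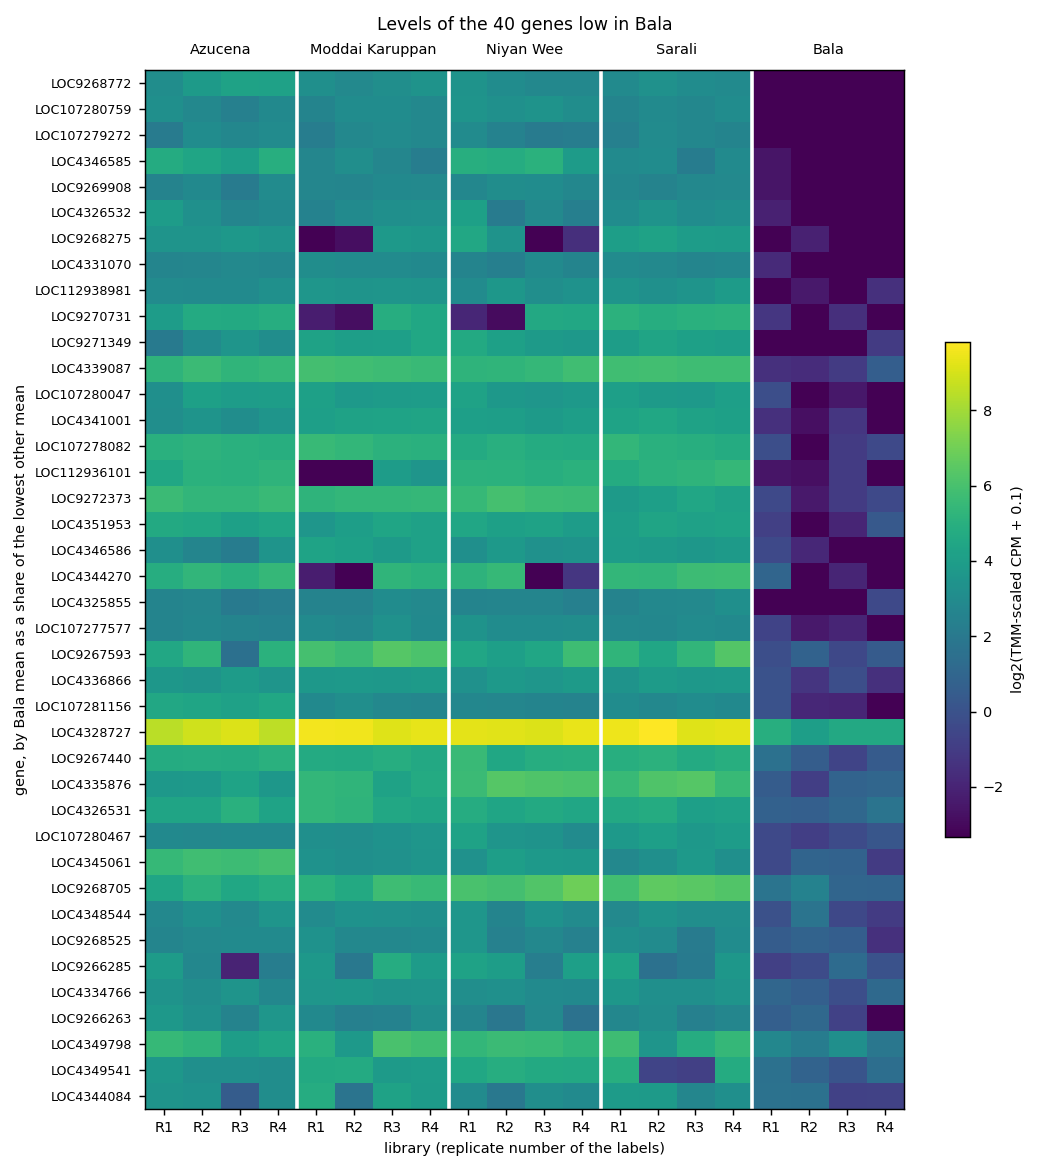
TMM-scaled CPM of the 40 genes (rows) in the 20 libraries (columns, grouped by cultivar), as log2(CPM + 0.1) on a colour scale. Rows run from the lowest to the highest Bala mean as a share of the lowest other cultivar mean, and dark cells outside Bala mark single libraries of Moddai Karuppan, Niyan Wee, Azucena and Sarali in which a gene was also near 0.

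How low Bala stood varied widely. In 16 genes its mean was below 2% of the lowest other cultivar mean, in 24 it was below 5%, in 6 it lay between 5% and 10% and in 10 it was above 10%. All 4 Bala libraries lay below all 16 others in 33 of the 40 genes, an arrangement found in 1.31% of all genes tested. Since the same Bala values chose the genes, nothing is read from that contrast.

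No Bala library held a single count of 3 genes. The lncRNA gene LOC9268772 (LOC_Os07g13234, chromosome 7) had 8.66, 14.5, 19.1 and 18.3 CPM in the Azucena libraries and 6.84 to 10.6 CPM in the 12 Sri Lankan libraries. LOC107280759, a protein-coding gene of chromosome 4, had 5.18 to 11.2 CPM in the 16 libraries, and the lncRNA gene LOC107279272 (LOC_Os11g14730, chromosome 11) 4.31 to 8.39 CPM. Measured against the limit of 3 counts over the 4 Bala libraries, their lowest other cultivar means were at least 161-fold, 142-fold and 112-fold higher.

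Another 6 genes had 1 to 3 counts over the 4 Bala libraries together. LOC4346585 (LOC_Os09g10054, chromosome 9) had 1 Bala count, and its lowest other cultivar mean was 391.9 times the Bala level pooled over libraries (95% exact Poisson interval 70.3 to 15480). For LOC9269908 (LOC_Os01g37280, chromosome 1), also with 1 count, the ratio was 375 (67.3 to 14809). The others with 2 or 3 counts were LOC4326532, LOC4331070, LOC9268275 and LOC9271349, with ratios of 122 to 240. With so few counts these ratios are known only to within a wide range.

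The most abundant of the 40 was not silent in Bala. LOC4328727 (LOC_Os02g12480, chromosome 2) stood at 30.1, 16.7, 24.3 and 24.5 CPM in the Bala libraries. It reached 356, 469, 559 and 363 CPM in Azucena, 720, 909, 585 and 616 in Sarali, 767, 742, 583 and 644 in Moddai Karuppan, and 629, 597, 565 and 668 in Niyan Wee. The 16 libraries of the other cultivars thus all lay far above Bala, yet its 1345 Bala counts left a clearly measurable level, 5.47% of the Azucena mean.

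LOC4339087 (LOC_Os05g39650, chromosome 5), the protein-coding gene with the third highest mean, came closer to disappearing. Its Bala libraries held 0.259, 0.217, 0.396 and 1.41 CPM, while the other cultivars had means ± SD (n = 4 each) of 42.6 ± 5.48 in Azucena, 55.0 ± 1.80 in Sarali, 53.4 ± 4.81 in Moddai Karuppan and 43.4 ± 7.87 in Niyan Wee. The Bala total was 25 counts, of which 11 came from replicate 4, the Bala library with the fewest counts outside ribosomal RNA. This gene and LOC4351953 (LOC_Os12g17090, chromosome 12; 18 Bala counts, 11.9 to 24.9 CPM elsewhere) were the 2 members with a curated RefSeq transcript.

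LOC9267593, a pseudogene of chromosome 10, was also among the 5 most abundant and varied far more between libraries of the same cultivar. Its Azucena libraries had 23.8, 38.2, 2.80 and 34.1 CPM and its Bala libraries 0.778, 1.65, 0.634 and 1.28 CPM. The Moddai Karuppan libraries had 50.2 to 82.7, those of Niyan Wee 17.2 to 53.4 and those of Sarali 22.1 to 78.5 CPM. Azucena replicate 3 thus came close to the Bala level, although it did not overlap with it.

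At the edge of the rule the Bala level was far from absent. The 3 genes just inside were LOC4349798, LOC4349541 and LOC4344084, whose Bala means were 20.2%, 20.5% and 24.1% of the lowest other mean. The 3 just outside were LOC4332694, LOC4351023 and LOC4340154, at 26.6%, 26.9% and 28.2%. By the CPM minimum, LOC9266263 and LOC4325855 were just inside with lowest other means of 5.06 and 5.40 CPM, and LOC4350154 and LOC4350155 just outside with 4.99 and 4.86 CPM.

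In 7 of the 40 genes at least 1 library of another cultivar was as low as the highest Bala library, and 6 of these were all but absent from some libraries of a cultivar and clearly present in others. These 6 genes had, within 1 cultivar, at least 1 library at 5 CPM or more and at least 1 at 0.5 CPM or less, a rule set after the values had been seen. They made up 15% of the 40 genes, against 1.4% (297) of all genes tested. Among the 11607 genes with every other cultivar mean at 5 CPM or more, 31 genes had such a split, and 6 of those 31 were the genes described here.

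In 4 of the 6 the libraries divided by replicate number. The header of the deposited table assigns replicates 1 and 2 of every cultivar to pool P1 and replicates 3 and 4 to pool P2, without saying what was pooled. LOC112936101 (chromosome 1) had 0 and 0 CPM in Moddai Karuppan replicates 1 and 2 but 15.5 and 11.4 CPM in replicates 3 and 4. All 4 libraries held it in Azucena (23.04 to 37.1 CPM), Niyan Wee (30.6 to 35.4) and Sarali (27.0 to 43.0), and Bala had 0 to 0.396 CPM. The first pair of Moddai Karuppan libraries therefore looked like Bala, and the second pair lay at an intermediate level.

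The pseudogene LOC9270731 (chromosome 6) divided both Moddai Karuppan and Niyan Wee in the same sense. It stood at 0.108, 0.0401, 29.5 and 22.6 CPM in Moddai Karuppan replicates 1 to 4 and at 0.170, 0.0314, 24.6 and 23.4 CPM in those of Niyan Wee. Sarali (29.6 to 35.3 CPM) and Azucena (15.3 to 29.4 CPM) had it in every library, and the Bala libraries had 0.324, 0, 0.238 and 0 CPM.

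The adjacent protein-coding genes LOC4344270 (LOC_Os07g47860) and LOC9268275 of chromosome 7 divided these cultivars in opposite senses. LOC4344270 had 0.108, 0, 39.2 and 33.3 CPM in Moddai Karuppan replicates 1 to 4 and 36.3, 44.6, 0 and 0.330 CPM in those of Niyan Wee. LOC9268275 followed it, with 0, 0.0401, 13.4 and 12.1 CPM in Moddai Karuppan and 23.9, 10.6, 0 and 0.247 CPM in Niyan Wee. In both genes replicates 1 and 2 were thus the low ones in Moddai Karuppan, whereas replicates 3 and 4 were the low ones in Niyan Wee, so in these genes the low pool was not the same in both cultivars. Azucena, at 29.2 to 42.8 and 11.1 to 13.0 CPM, and Sarali, at 40.6 to 53.0 and 15.0 to 18.8 CPM, were undivided in both genes.

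The remaining split genes divided other libraries. LOC4349541 (LOC_Os11g01280) had 30.1, 0.559, 0.458 and 26.8 CPM in Sarali replicates 1 to 4, where replicates 2 and 3 lay below every Bala library (0.951 to 2.85 CPM). LOC9266285 (LOC_Os02g32950) fell to 0.150 CPM in Azucena replicate 3, against 14.6, 6.81 and 4.60 CPM in the other Azucena libraries and 0.454 to 2.30 CPM in Bala. The seventh gene with overlap, LOC4344084, reached 1.29 CPM in the same Azucena library, between the lowest and the highest Bala values (0.476 and 2.98 CPM).

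**Figure D2:**
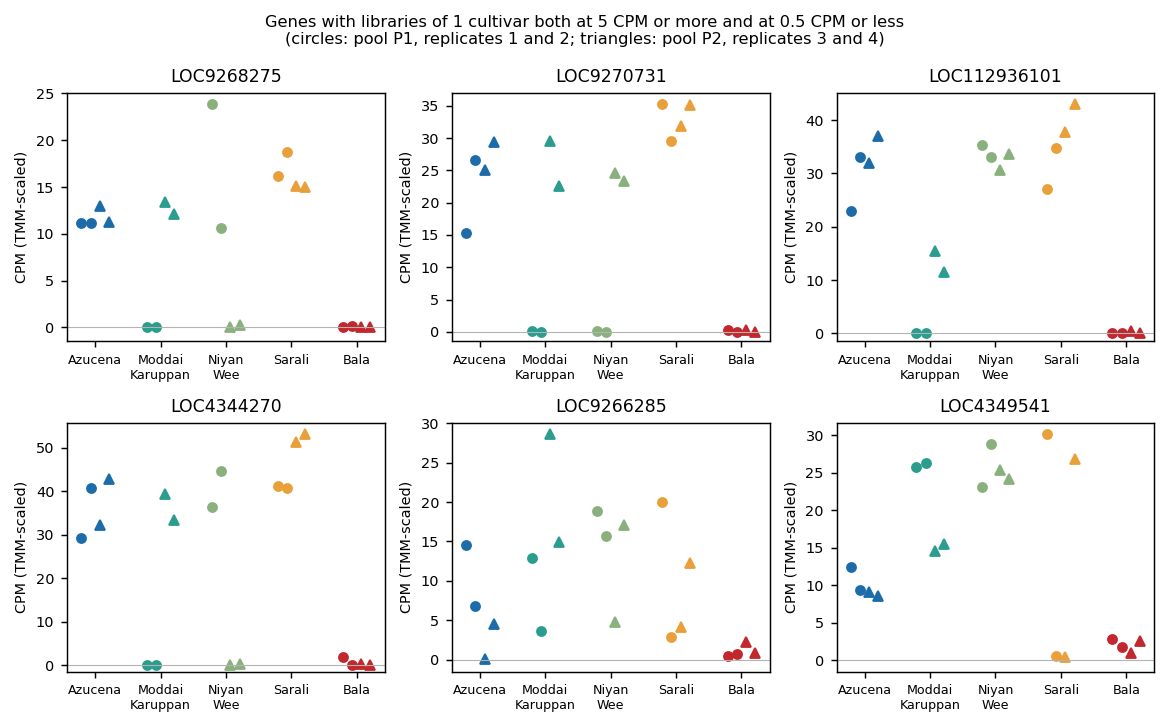
TMM-scaled CPM per library of the 6 genes with libraries of 1 cultivar at 5 CPM or more and at 0.5 CPM or less, by cultivar on the x axis. Circles are replicates 1 and 2 (pool P1) and triangles replicates 3 and 4 (pool P2); Moddai Karuppan and Niyan Wee divide the same way in LOC9270731 and opposite ways in LOC4344270 and LOC9268275.

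Over all genes tested, the same kind of split was seen in 117 genes in Azucena, 100 in Niyan Wee, 85 in Sarali and 40 in Moddai Karuppan. Splits with 2 libraries high and 2 low followed particular pairs. In Moddai Karuppan replicates 1 and 2 were the low pair in 14 such genes and replicates 3 and 4 in 1, and in Niyan Wee these numbers were 12 and 17. In Sarali the low pair was replicates 2 and 3 in 8 genes and replicates 1 and 4 in 4. Whether the labelled libraries of a cultivar came from plants of 1 genotype was not tested. With pool P1 alone the selection rule gave 37 genes, of which 34 were among the 40, and with pool P2 alone it gave 47, of which 32 were among the 40.

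Several of the genes lay near each other. Of the 40, 18 had another of the 40 within 4 measured genes in the reference gene order, forming 9 pairs. In that order 5 of the pairs were directly adjacent with no annotated gene between. The adjacent pairs were LOC4325855 and LOC9269908 on chromosome 1, LOC9268705 and LOC4335876 as well as LOC4336866 and LOC9266263 on chromosome 4, LOC4344270 and LOC9268275 on chromosome 7, and LOC4346585 and LOC4346586 on chromosome 9. The looser pairs were LOC9272373 with LOC112936101 and LOC4326531 with LOC4326532 on chromosome 1, LOC4328727 with LOC107280047 on chromosome 2, and LOC9267593 with LOC4348544 on chromosome 10.

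Members of an adjacent pair did not always share a level in Bala. On chromosome 4, LOC9268705 (LOC_Os04g35210) had 3.24, 5.51, 1.82 and 1.80 CPM in Bala and LOC4335876 (LOC_Os04g35220) 1.30, 0.434, 1.74 and 1.92 CPM. In the 16 other libraries these genes reached 21.2 to 121 and 12.3 to 82.0 CPM. Both genes therefore kept a low but measurable level. On chromosome 9, LOC4346586 (LOC_Os09g10201) had 0.648, 0.173, 0 and 0 CPM, and LOC4346585 next to it had its single count in replicate 1. In the second chromosome 4 pair, LOC4336866 (LOC_Os04g51080) stood at 0.257 to 0.908 CPM in Bala and LOC9266263 (LOC_Os04g51090) at 0 to 2.08 CPM, or 4.58% and 20.0% of their lowest other means.

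**Figure D3:**
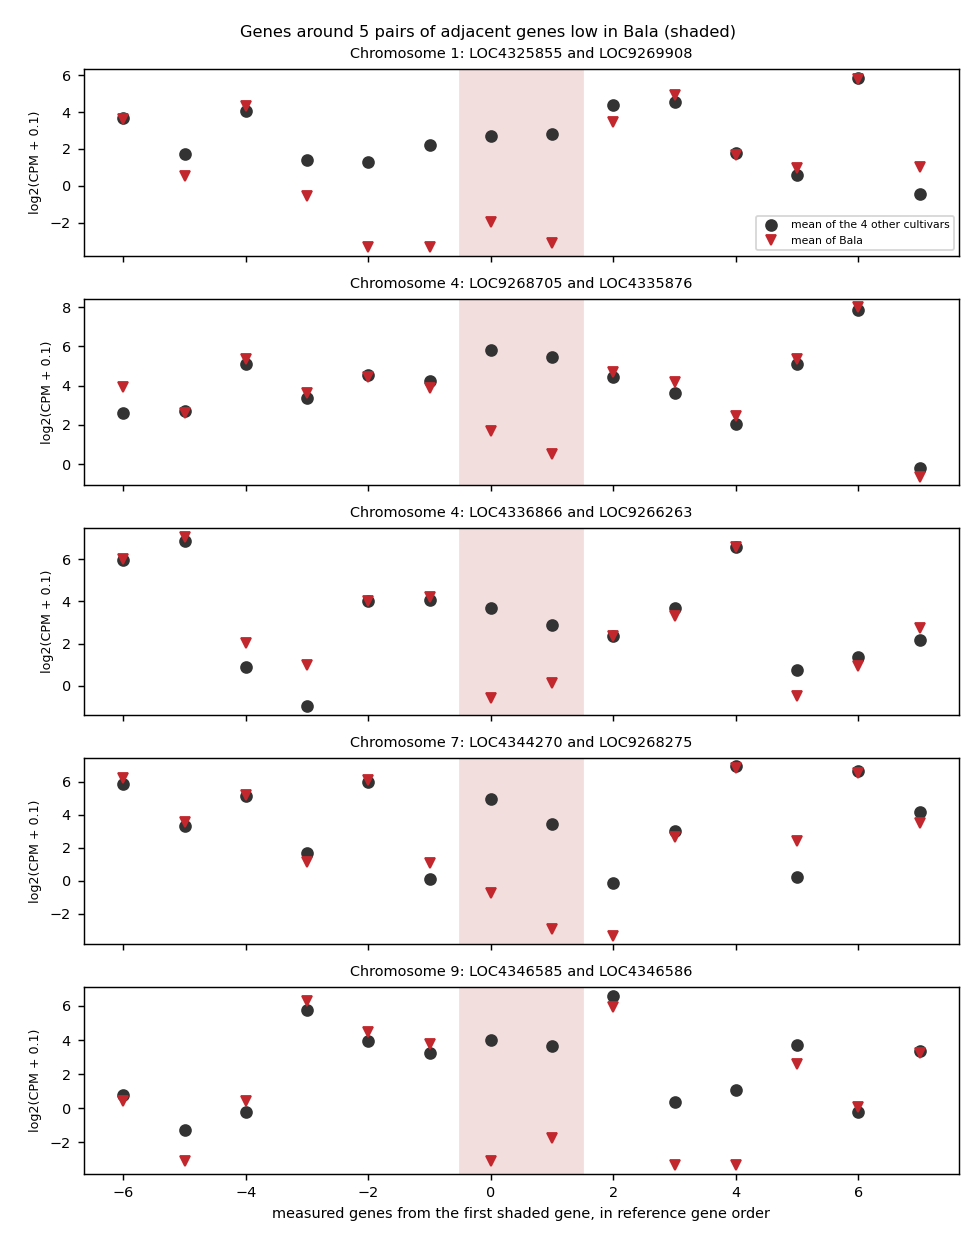
Mean level, as log2(CPM + 0.1), of the measured genes around the 5 adjacent pairs (shaded), in the order of the reference table, for Bala (red triangles) and for the mean of the 4 other cultivars (black circles). On chromosome 1 the low stretch reaches past the pair on its left side, while around both chromosome 4 pairs the next genes on either side lie close together in Bala and the others. On chromosome 9, past LOC4346591, LOC9271719 and LOC9266872 had no Bala count and means of 1.22 and 1.98 CPM elsewhere. Their log2 fold changes had standard errors of 6695 and 12708, so the fit could not compare them.

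The measured genes next to the 40 were not used by the rule. In them Bala could be tested against the mean of the 4 other cultivars, taken on the log scale. Of 67 such neighbours, 57 of them protein coding, 15 (22.4%) were lower in Bala, 7 (10.4%) were higher and 45 did not pass (edgeR quasi-likelihood test, adjusted p below 0.05). Among all genes tested 6.67% were lower and 8.84% higher. The median log2 fold change of the neighbours was -0.13, against -0.01 for all genes. The neighbours of 1 block share a location, so they are not independent of each other.

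Of the 15 lower neighbours, 12 had a lowest other cultivar mean under 5 CPM, the minimum of the selection rule. The Bala mean lay at least 4-fold below the lowest other mean in 6 of the 15, and 3 had no Bala count. These 6 had to lie under the minimum, since a gene above it and as low in Bala would be a member. With pool P1 alone 8 neighbours were lower (11.9%, against 1.55% of all genes) and 1 higher (1.49%, against 3.00%). With pool P2 alone 6 were lower (8.96%, against 3.96%) and as many were higher (8.96%, against 5.31%). A fit that adjusted for the ribosomal RNA share left 7 lower (10.4%, against 2.38%) and 1 higher. Without Bala replicates 3 and 4, those with the fewest counts outside ribosomal RNA, 10 neighbours (14.9%, against 2.39%) were lower and 1 higher.

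Next to the chromosome 1 pair of LOC4325855 and LOC9269908, LOC9269668 (LOC_Os01g37210) had no count in any Bala library and 2.90 to 6.56 CPM in the 16 others. Its mean of 4.61 ± 1.11 CPM (SD, n = 16) was at least 90.4-fold above the limit of 3 counts over the 4 Bala libraries (edgeR adjusted p = 2.09e-09). The gene beyond it, LOC4325852, also had no Bala count, against a mean of 2.30 CPM elsewhere (adjusted p = 2.15e-08), and the third, LOC4325851 (LOC_Os01g37130), had 0.577 against 2.49 CPM (adjusted p = 0.000608). On the opposite side LOC4324561 (LOC_Os01g37470) was lower to a smaller degree, at 11.0 ± 3.33 against 20.9 ± 5.52 CPM (adjusted p = 0.00407). Bala counts were thus missing from LOC9269668 and LOC4325852 on 1 side of the pair, whose members had 5 Bala counts or fewer each. LOC4325851 kept 35 counts, and LOC4325848 after it stood at 19.6 CPM in Bala and 16.6 elsewhere.

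The gap between LOC9272373 (LOC_Os01g35580) and LOC112936101, also on chromosome 1, held 2 measured genes that were low in Bala. The reference lists 11 genes in this gap, and the rest of them were not measured. LOC4326426 (LOC_Os01g35830) had no Bala count and a mean of 9.89 ± 5.35 CPM over the 16 other libraries, at least 194-fold above the limit (adjusted p = 0.000695). In Moddai Karuppan it divided as LOC112936101 did, with 0.0269 and 0 CPM in replicates 1 and 2 and 4.13 and 3.30 CPM in replicates 3 and 4. The other, LOC9270848, had 3 Bala counts (adjusted p = 0.00587) and 0, 0.201, 1.42 and 1.09 CPM in Moddai Karuppan. LOC9272373 at the end of this stretch did not divide Moddai Karuppan, where it had 37.2, 42.4, 42.0 and 43.5 CPM. LOC4326867 (LOC_Os01g35990), on the far side of LOC112936101, stood at 2.69 ± 0.407 CPM in Bala and 4.94 ± 1.16 elsewhere (log2 fold change -0.87 ± 0.175 SE, adjusted p = 0.00203), and this call was not kept with pool P1 alone (log2 fold change -0.84, adjusted p = 0.174) or pool P2 alone (-0.86, adjusted p = 0.0882), where the fold change was of like size.

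On chromosome 7, LOC107276478 (LOC_Os07g47950), beside LOC9268275, had no Bala count and was at 0 in Moddai Karuppan replicates 1 and 2 and in Niyan Wee replicates 3 and 4. It had 0.540 to 1.94 CPM in the 12 remaining libraries. The libraries at 0 were thus those in which LOC4344270 and LOC9268275 were near 0, although at this level the test of Bala against the others was not passed (adjusted p = 0.0534).

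Further lower neighbours belonged to transcript classes other than protein coding. The lncRNA gene LOC107279780, next to LOC4351953 on chromosome 12, had no Bala count and a mean of 4.18 ± 1.55 CPM elsewhere, at least 82.1-fold above the limit (adjusted p = 1.99e-08). The lncRNA gene LOC4328729, the single measured gene between LOC4328727 and LOC107280047, stood at 0.259, 0.173, 0.476 and 0.257 CPM in Bala, with means of 10.6 in Azucena and 2.39 to 3.40 in the Sri Lankan cultivars (log2 fold change -3.77 ± 0.377 SE, adjusted p = 6.83e-07). The pseudogene LOC112937623, between LOC4326531 and LOC4326532, had 3 Bala counts and a mean of 5.28 ± 2.67 CPM elsewhere (adjusted p = 2.96e-06). In both of these pairs, then, the measured gene between the members was low in Bala too. By contrast, none of the 3 measured genes next to or between LOC9267593 and LOC4348544 passed (adjusted p 0.0775 to 0.225), nor did either neighbour of the chromosome 4 pairs (adjusted p = 0.123 and 0.231 beside LOC9268705 and LOC4335876, and 0.46 and 0.987 beside LOC4336866 and LOC9266263).

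Some neighbours were higher in Bala. LOC4346583 (LOC_Os09g10000), on the left of LOC4346585, stood at 13.0, 13.0, 14.0 and 14.6 CPM in Bala, a mean of 13.6 ± 0.799 against 9.54 ± 6.84 over the 16 others (log2 fold change 0.96 ± 0.148 SE, adjusted p = 0.000146). The others fell into a high group of Azucena and Niyan Wee, with means of 16.4 and 15.6 CPM, and a low group of Moddai Karuppan and Sarali, with 3.21 and 2.90 CPM, so the Bala mean exceeded the mean of the 4 but lay below both means of the high group. The fit averaged the 4 on the log scale, so its fold change is larger than the ratio of the CPM means. LOC4340933 (LOC_Os06g22810), next to LOC9268525 on chromosome 6, had 21.6 ± 6.39 CPM in Bala and 14.2 ± 4.18 elsewhere (log2 fold change 0.65 ± 0.131 SE, adjusted p = 0.00202). That call was not kept when the fit adjusted for the ribosomal RNA share (log2 fold change 0.63, adjusted p = 0.0815), with pool P1 alone (0.48, adjusted p = 0.228) or without Bala replicates 3 and 4 (0.48, adjusted p = 0.0773).

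With distance the excess of lower neighbours declined. Among genes 2 positions from any of the 40, 11 of 74 were lower in Bala and 9 higher. At 3 positions the numbers were 7 and 16 of 78, at 4 positions 5 and 10 of 80, and at 10 positions 4 and 9 of 76. Beyond the second position the lower share stayed between 5.00% and 10.3%, near the 6.67% of all genes. The higher share there varied from 20.5% at 3 positions to 3.75% at 9 positions, against 8.84% of all genes. A gene close to several of the 40 was counted at each of those distances, so the positions shared genes. LOC9269668, LOC4324561, LOC4326426 and LOC9270848, all lower in Bala, were counted at both the first and the second position.

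**Figure D4:**
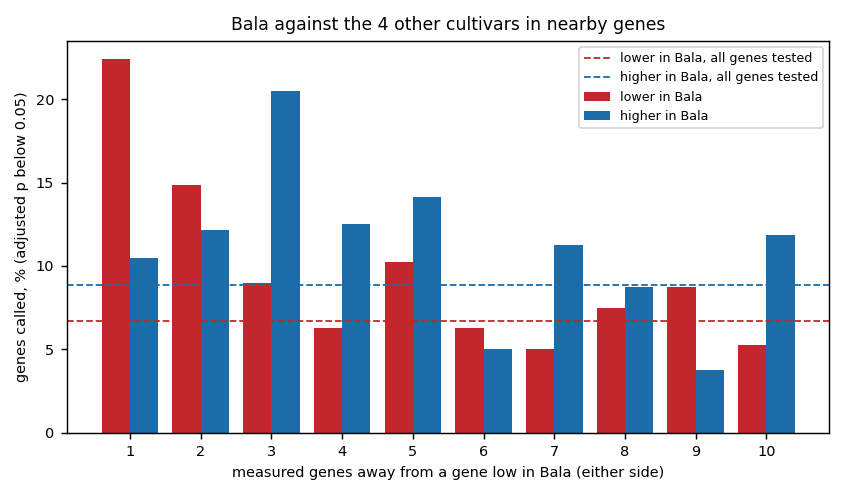
Share of genes lower (red bars) and higher (blue bars) in Bala than in the log-scale mean of the 4 other cultivars, at adjusted p below 0.05. Positions are measured genes from any of the 40 genes on either side, and the same gene can stand at several positions. Dashed lines give the shares over all genes tested, 6.67% lower and 8.84% higher, and the lower share is 22.4% at the first position.

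How the 4 other cultivars differed among themselves was not what the rule ranked, so it was tested, although the minimum of 5 CPM in each of them makes a wide difference less likely. Of the 40 genes, 11 differed among Azucena, Moddai Karuppan, Niyan Wee and Sarali (edgeR quasi-likelihood F test, adjusted p below 0.05), and 12 did at an unadjusted p below 0.05. The share of all genes tested was 21%, and that of the genes with every other mean at 5 CPM or more was 14.2%. In 23 of the genes the highest of the 4 means was less than 2-fold above the lowest, and in 6 it was more than 3-fold above. The median ratio of highest to lowest was 1.73, against 1.32 in all genes with every other mean at 5 CPM or more. Azucena held the lowest of the 4 means in 20 of the 40 genes (50%) and in 35.1% of the genes with every other mean at that minimum.

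Against the mean of the Sri Lankan cultivars, Azucena had higher levels of 4 genes and lower levels of 7, and 29 genes did not pass. Over all genes tested 12.8% were higher and 9.67% lower, and the median log2 fold change was -0.10 for the 40 genes. Among the genes with every other mean at 5 CPM or more, 7.57% were higher and 8.69% lower, with a median of -0.026. Of these 11 calls 9 were kept when any single library was left out, as were 8 of the 11 among the 4 cultivars. A fit without the Bala libraries gave 6 genes higher and 8 lower in Azucena.

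LOC4345061 (chromosome 8) was the clearest of those higher in Azucena. Its libraries had 44.8, 54.8, 51.1 and 59.2 CPM in Azucena, 6.98, 9.37, 13.2 and 9.38 in Sarali, 10.2, 9.30, 10.0 and 11.6 in Moddai Karuppan, and 10.0, 16.3, 13.8 and 12.9 in Niyan Wee, with 0.648, 1.78, 1.66 and 0.385 in Bala. Azucena lay above all other libraries, the Sri Lankan cultivars overlapped with each other, and Bala lay below all of them. The log2 fold change of Azucena over the Sri Lankan mean was 2.26 ± 0.187 (SE), with an adjusted p of 2.3e-08 by edgeR.

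The lncRNA gene LOC107281156 (chromosome 6) was also highest in Azucena, with 21.6 ± 2.31 CPM there and 7.39 ± 1.06, 6.20 ± 0.424 and 7.79 ± 0.647 in Moddai Karuppan, Niyan Wee and Sarali (log2 fold change 1.61 ± 0.219 SE, adjusted p = 1.55e-05). LOC9268772, at 0 counts in Bala, was higher in Azucena to a smaller degree (log2 fold change 0.83 ± 0.175 SE, adjusted p = 0.00232). Azucena replicate 1, at 8.66 CPM, lay within the Sri Lankan range of this gene. Its call among the 4 cultivars was not kept without Azucena replicate 3 (adjusted p = 0.0762) or 4 (0.0825), nor was its Azucena call with pool P1 alone (0.363).

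LOC4346585 was high in Azucena and also in Niyan Wee. Its libraries had 26.9, 20.9, 16.4 and 30.4 CPM in Azucena and 29.8, 28.1, 33.3 and 14.7 in Niyan Wee, against 6.46, 8.98, 6.49 and 4.69 in Moddai Karuppan and 7.86, 8.44, 4.58 and 7.66 in Sarali. The high and low pairs of cultivars did not overlap, and it differed among the 4 (adjusted p = 8.3e-06) and among the 3 Sri Lankan cultivars (adjusted p = 3.63e-05). Its Azucena call was not kept with pool P2 alone (log2 fold change 1.31, adjusted p = 0.0546). The same pairs of cultivars were high and low in its neighbour LOC4346583, described above, whereas LOC4346586 on its other side had means of 7.70 CPM in Azucena, 10.9 in Niyan Wee, 13.9 in Sarali and 17.6 in Moddai Karuppan.

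LOC4346585 and LOC9272373 were the 2 genes that differed among the Sri Lankan cultivars, and 5 passed at an unadjusted p below 0.05. The share called was 4.02% of all genes and 2.03% of those with every other mean at 5 CPM or more. LOC9272373 was low in Sarali, with 14.4, 16.9, 21.6 and 18.4 CPM, and had 40.1 to 50.2 in Azucena, 37.2 to 43.5 in Moddai Karuppan and 44.9 to 62.3 in Niyan Wee (adjusted p = 0.000332 among the Sri Lankan cultivars). All 4 Sarali libraries lay below the other 12, and Bala lay lower still at 0.0867 to 0.648 CPM. Each call was lost in a subset of the libraries, LOC4346585 with pool P2 alone (adjusted p = 0.111) and LOC9272373 with pool P1 alone (0.0848).

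Of the genes lower in Azucena, the adjacent pair LOC4335876 and LOC9268705 had the largest fold changes. LOC4335876 had 12.8, 13.6, 20.0 and 12.3 CPM in Azucena, 46.9, 72.5, 82.0 and 46.8 in Sarali, 42.1, 38.4, 19.2 and 26.0 in Moddai Karuppan and 50.2, 81.2, 73.8 and 68.2 in Niyan Wee. Azucena overlapped with Moddai Karuppan and lay below every library of Niyan Wee and Sarali (log2 fold change -1.80 ± 0.275 SE against the Sri Lankan mean, adjusted p = 5.79e-05). LOC9268705 had means of 26.9 ± 6.39 CPM in Azucena, 79.0 ± 16.5 in Sarali, 39.4 ± 12.5 in Moddai Karuppan and 80.9 ± 27.4 in Niyan Wee (log2 fold change -1.23 ± 0.268 SE, adjusted p = 0.00201). The order of the cultivar means was thus the same in both genes, although Niyan Wee and Sarali overlapped. The call of LOC9268705 was not kept with pool P1 alone (log2 fold change -0.84, adjusted p = 0.0963).

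LOC4341001 (LOC_Os06g25500) stood at 10.1 ± 1.45 CPM in Azucena and at 15.9 to 19.8 in the Sri Lankan means (log2 fold change -0.84 ± 0.178 SE, adjusted p = 0.00152). The lncRNA gene LOC9271349 (chromosome 3) stood at 7.98 ± 2.99 and 17.5 to 18.7 (log2 fold change -1.17 ± 0.283 SE, adjusted p = 0.00496). Also lower were LOC107280467, LOC4328727 and LOC4346586, with log2 fold changes of -0.75, -0.61 and -0.85 and adjusted p of 0.00538, 0.0104 and 0.036 (edgeR). Of these 5 genes LOC9271349 lost its call with pool P2 alone (log2 fold change -0.75, adjusted p = 0.182), and the other 4 lost theirs with either pool alone (adjusted p 0.0576 to 0.276), with negative fold changes in each. LOC4341001, LOC107280467 and LOC4328727 also lost their calls among the 4 cultivars in either pool. The call of LOC4346586 ended without any 1 of 6 libraries (Sarali replicate 1, Moddai Karuppan replicates 1 and 4, and Azucena replicates 1, 2 and 3; adjusted p 0.0508 to 0.116). That of LOC4328727 ended without Azucena replicate 1 (adjusted p = 0.0527) or 4 (0.0547). Among the 4 cultivars LOC4328727 passed narrowly (adjusted p = 0.0478), and this call ended without any 1 of 14 libraries (0.0525 to 0.169); that of LOC9271349 (0.0328) ended without any 1 of 5 libraries, Azucena replicates 1, 2 and 4 and Moddai Karuppan replicates 1 and 4 (0.0525 to 0.117).

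**Figure D5:**
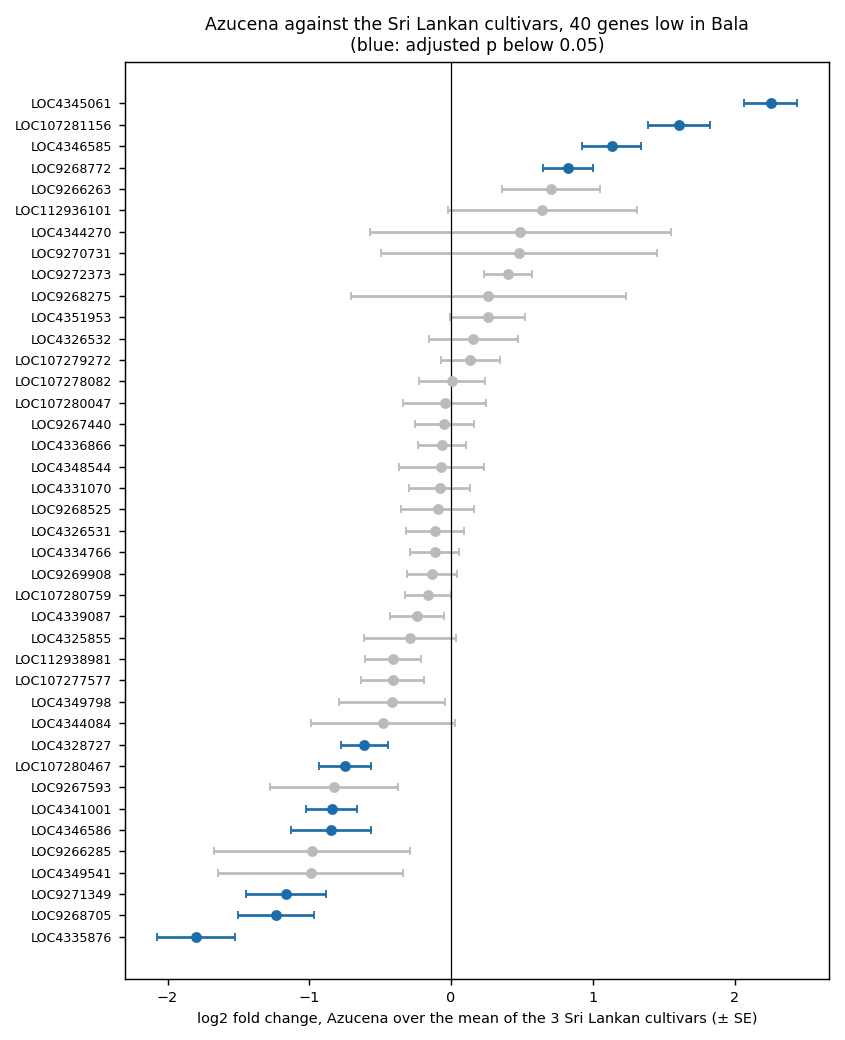
Log2 fold change of Azucena over the log-scale mean of Moddai Karuppan, Niyan Wee and Sarali for each of the 40 genes, with bars of ± 1 standard error of the edgeR fit. Blue marks the 4 genes higher and the 7 lower at adjusted p below 0.05; the widest bars belong to genes whose libraries split within a cultivar.

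The pools were also fitted apart, with 2 libraries per cultivar. More members were then higher than lower in Azucena, the opposite of the 4 higher and 7 lower with all libraries: 7 higher and 2 lower with pool P1 alone, and 5 higher and 3 lower with pool P2 alone. The split genes took part in this. With all libraries none of the 6 passed in a comparison among the 4 cultivars. With pool P1 alone LOC112936101, LOC9270731, LOC4344270 and LOC9268275 were called higher in Azucena and different among the Sri Lankan cultivars, and with pool P2 alone LOC4344270 and LOC9268275 were. These genes were singled out for their split, so their calls within a pool are a description. Without the 6 split genes, 3 members were higher and 2 lower in Azucena with pool P1 alone, and 3 and 3 with pool P2 alone.

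The annotation of the 40 genes differed from that of the table as a whole. Protein-coding genes made up 72.5% of them, against 92.5% of the 20839 gene rows matched to the reference and 97.5% of the matched genes with every other mean at 5 CPM or more. The lncRNA share was 22.5%, against 5.03% and 1.5%, and the pseudogene share 5%, against 1.45% and 0.443%. A curated RefSeq transcript was listed for 5% of the 40, against 17.0% and 21.9%, and an MSU7 locus identifier for 67.5%, against 90.2% and 94.8%.

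Other properties bear on how reads could be assigned to these genes. In 50% of the 40 at least 1 library had a count that was not whole, against 18.5% of all matched genes, and 25% overlapped another annotated gene in the reference table, against 10.7%. Values of such genes are less certain where reads were shared between copies or between overlapping genes, since no source used here gives how strand and shared reads were handled in counting. The median genomic span was 3968 bp, against 3560 bp for all matched genes and 3988 bp for those with every other mean at 5 CPM or more. These shares are descriptions of the 40 genes, and their part in the low Bala counts was not tested.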

How the data were processed

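Libraries of root RNA were made with a stranded total RNA kit that removes ribosomal RNA, per the labels' protocols. The labels name the molecule as polyA RNA, and no source used here resolves this difference. The submitters' processing notes list HISAT2, edgeR 3.36.0 and IRGSP-1.0 without a role. No source used here gives the counting tool or the annotation. The authors deposited expected counts per gene and library, of which 7.58% are not whole; they were rounded. Another 2 rows name no gene, hold no counts and were left out.

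All 20 libraries entered 1 fit with 1 mean per cultivar (edgeR 4.0.16 in R 4.3.3: filterByExpr with a minimum count of 10, which left 21225 genes and all 40 members, TMM scaling, glmQLFit, glmQLFTest). The design had assumed whole counts. P-values were adjusted over every gene tested by Benjamini-Hochberg, and 0.05 was the threshold. Means are given ± SD with n = 4 per cultivar unless stated. Tested were differences among the 4 cultivars other than Bala (F test), Azucena against the Sri Lankan mean, differences among the Sri Lankan cultivars (F test) and, for neighbours only, Bala against the mean of the 4 others. In the Azucena and Bala contrasts the mean of several cultivars was taken on the log scale. Fold changes can therefore differ from the ratio of the CPM means given. Gene names, classes and gene order came from a RefSeq table of assembly ASM3414082v1. Its build differs from that of the notes, so coordinates and sequences are left out. Which genes are adjacent holds for that assembly and was not checked in the other build. No 2 libraries were near-identical (highest correlation of log2 counts 0.972).

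The members and lists were chosen with earlier results of these data known. Named were the 5 most abundant members, those with 0 Bala counts, the 3 genes on each side of the threshold, up to 6 members with the smallest p among the 4 cultivars and 4 in each direction for Azucena, adjacent members and the 8 neighbours with the smallest p; split genes and the other genes named were chosen after their values were seen. A comparison with protein relatives was not run. Alternatives were DESeq2 1.42.0, other scalings, filters and covariates, a replicate block, and fits leaving out libraries. The methods were tested on simulated data.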

Additional observations from a re-analysis of the deposited data

Results flagged for a closer look

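Within the 4 libraries of a cultivar, 18 of 200 gene and cultivar combinations had a library whose gap to the nearest other took up most of the group's range (above the 95% critical value of Dixon's test). Chance flags about 1 in 20 groups of normally distributed values. A group with counts in 1 library alone is always flagged, so that rate does not hold for such groups.

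Of these, 12 were high Bala libraries, most resting on a few counts. Bala replicate 1 stood out at 0.0648 CPM in LOC9269908 and in LOC4346585 (1 count each), 0.130 CPM in LOC4326532 (2 counts), 0.194 CPM in LOC4331070 (3 counts), 0.778 CPM in LOC107280047 (12 counts) and 1.88 CPM in LOC4344270 (29 counts, against 0.159 CPM in the next library). Bala replicate 2 stood out at 0.130 CPM in LOC9268275 (3 counts) and at 3.25 CPM in LOC4348544 (75 counts, against 0.843 CPM), and replicate 3 at 0.396 CPM in LOC112936101 (5 counts). Bala replicate 4 stood out at 0.385 CPM in LOC9271349 (3 counts), 0.641 CPM in LOC4325855 (5 counts) and 1.41 CPM in LOC4339087 (11 counts).

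The other 6 were high libraries of other cultivars. Azucena replicate 3 had 32.9 CPM of LOC4326531 (20.4 in the next library) and 13.0 CPM of LOC9268275 (11.3). Azucena replicate 4 had 32.2 CPM of LOC9267440 (28.0) and 9.69 CPM of LOC112938981 (7.92). Niyan Wee replicate 4 had 53.4 CPM of LOC9267593 (21.98), and Niyan Wee replicate 2 had 31.4 CPM of LOC107278082 (26.7).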

How the results depend on the processing

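The calls followed through the alternatives were 11 members among the 4 cultivars, 11 for Azucena, 2 among the Sri Lankan cultivars and 8 neighbours. None of these with a fold change changed its sign, but the balance of members higher and lower in Azucena turned within each pool. For genes without a call the sign was not followed. Of single genes under single alternatives, 61 values lost their call and 891 did not. The number of genes under the selection rule was 98 with CPM by library total, 82 with ribosomal RNA genes left out and 16 with a minimum of 10 CPM. All 40 were among the 98 and the 82. Leaving out ribosomal RNA genes raised CPM values, which made the fixed CPM minimum less strict. With a term for the ribosomal RNA share 7 neighbours were lower in Bala and 1 higher. Alternatives chosen after seeing the data were the fits of pool P1 or P2 alone and the removal of Bala replicates 3 and 4, which left 10 lower neighbours and 1 higher. With pool P1 alone, 2213 of all genes differed among the 4 cultivars (4450 with all libraries), 7 members were higher and 2 lower in Azucena, 5 differed among the Sri Lankan cultivars, and 8 neighbours were lower and 1 higher in Bala. With pool P2 alone the numbers were 1526 of all genes, 5 members higher and 3 lower in Azucena, 3 that differed among the Sri Lankan cultivars, and 6 neighbours lower and 6 higher in Bala. DESeq2 gave 4 members that differed among the Sri Lankan cultivars, with 5 higher and 9 lower in Azucena. Among the 129 genes nearest on each side, 2 per side, 22 were lower and 15 higher in Bala. The fit without the Bala libraries gave 6 members higher and 8 lower in Azucena and 3 that differed among the Sri Lankan cultivars. In that fit LOC4328727 lost its call among the 4 cultivars (edgeR adjusted p = 0.0626).

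Leaving out 1 library at a time gave 37 to 45 selected genes, 9 to 12 members that differed among the 4 cultivars (3629 to 4572 of all genes), 4 to 5 higher and 5 to 7 lower in Azucena, 2 to 4 that differed among the Sri Lankan cultivars (4 without Bala replicate 2), and 12 to 17 neighbours lower and 5 to 8 higher in Bala.

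Deviations of libraries with the same replicate number had a median correlation of 0.0498 over 40 pairs, with 15 above 0.1. For different numbers the median was -0.0156 over 120 pairs, with 25 above 0.1. Libraries of the same number thus deviated together more often, but weakly, and the numbers were not taken as pairs. With the replicate block, 9 members and 4337 of all genes differed among the 4 cultivars, 4 members were higher and 7 lower in Azucena, 2 differed among the Sri Lankan cultivars, and 13 neighbours were lower and 8 higher in Bala; LOC9271349 (adjusted p = 0.0598) and LOC4328727 (0.0821) lost their calls among the 4 cultivars. Depth limits what can be said of Bala, since 3 of its 4 libraries held fewer counts outside ribosomal RNA than any other library. The comparison with protein relatives at 60% or 80% identity was not run.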
